A study of Mus musculus with 4 samples.

Results

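Cluster 11 is one of 17 clusters into which the authors divided PB3 cells, a cell line from a mouse mammary tumor, by the open chromatin of each cell. Its members were taken as every cell with cluster number 11 in the deposited cell table, which gave 1733 of 43782 cells. The eribulin scATAC library held 1356 of them and the untreated scATAC library 6. The eribulin multiome library held 370 and the untreated multiome library 1. Eribulin cells had received 500 nM of the drug for 72 h and then 48 h of recovery, in 4 rounds, and untreated cells had received no drug. Each condition was measured once by single-cell ATAC-seq (scATAC, run 1) and once in nuclei by the ATAC reads of a multiome assay (run 3), so there were 4 groups of 1 library each. The files used here hold totals per cell and no gene or peak values, so the cluster was not checked against marker genes and is called by its number.

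Eribulin binds the growing ends of microtubules and stops their growth, which arrests dividing cells in mitosis, and it is used against metastatic breast cancer. In ATAC-seq the Tn5 transposase cuts DNA that is not wrapped in nucleosomes, and cells whose cuts fall in the same regions are joined into a cluster. Lentiviral barcodes are short DNA tags inserted into the genome, which all descendants of a tagged cell inherit, so that cells with the same barcode form a lineage.

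The libraries held 8114 to 16724 cells, with medians of 4229.5 to 7440 cut sites in peaks per cell. The scATAC libraries shared 215 droplet barcodes and the multiome libraries 123, of which 18 and 8 belonged to cells of cluster 11. Without all cells that carry a shared droplet barcode, the share in cluster 11 was 8.10% with eribulin against 0.0656% untreated in scATAC. In the multiome libraries it was then 4.53% with eribulin against 0.0106% untreated. With 1 library per group, no spread between replicates was measured. An exact two-sided permutation test on 2 pairs of libraries cannot give a p below 0.5, so no test is reported. Intervals are exact 95% binomial intervals (Clopper-Pearson for shares, order statistics for medians). They cover counting error only, and cells of 1 library are not replicates of a condition. What a count of 0 allows is given as 3 divided by the number of cells, which differs from the exact upper bound. The labels do not say if 1 treated culture supplied both eribulin libraries, and protocol and run cannot be told apart.

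The lineages that the results turn on are the 5 with at least 3 cells of cluster 11 in an eribulin library. Each barcode has 48 bases in the deposited list, namely a short part of 14 bases, a linker of 4 and a long part of 30. The name gives the number of the short part and then that of the long part. The sequences are written in the direction of the list, taken as 5′ to 3′, with the long part in capitals, since lineages can share the short part.
39-41529: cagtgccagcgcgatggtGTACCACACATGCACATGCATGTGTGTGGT
76-49517: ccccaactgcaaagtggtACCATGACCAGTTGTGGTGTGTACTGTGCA
6-93034: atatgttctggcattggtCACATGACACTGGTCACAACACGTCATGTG
95-33662: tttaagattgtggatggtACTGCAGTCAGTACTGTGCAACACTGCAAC
55-23349: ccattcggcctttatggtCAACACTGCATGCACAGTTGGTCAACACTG
Among the 10 pairs of these barcodes, the long parts differed at 18 to 28 of their 30 bases. The cluster held 10 lineages in all, of which 4 share short part 55, and any 2 of the 10 differed at 16 or more of the 48 bases. In the 13 cells of cluster 11 whose barcode name carries a sequence, that sequence equalled the list entry in all 13.

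Cells of cluster 11 came almost entirely from eribulin-treated cultures in both protocols. In scATAC its share was 8.11% (7.70 to 8.53) with eribulin, against 0.0641% (0.0235 to 0.139) in untreated cells. In the multiome libraries the share was 4.56% (4.12 to 5.04) with eribulin, against 0.0104% (0.000264 to 0.0581) in untreated cells. The eribulin minus untreated difference was 8.04 percentage points in scATAC and 4.55 points in the multiome libraries. The ratio of shares was 126.5 (58.0 to 345) in scATAC and 437 (77.9 to 17306) in the multiome libraries, where it rests on a single untreated cell. By size cluster 11 was the 5th cluster of the eribulin scATAC library and the 3rd of the eribulin multiome library. The excess of eribulin cells was not particular to it. Clusters 0, 1, 5, 7, 10, 12 and 13 also had at least 50 cells in an eribulin library and fewer than 50 in each untreated library. Clusters were formed from these same cells, so the shares describe the cluster and are no separate evidence for a drug effect.

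Cells of cluster 11 were found at every depth in both eribulin libraries. Each library was divided by cut sites per cell into 5 depth bins of equal cell number. In scATAC the share was 6.61% (5.79 to 7.50) in the shallowest bin, 9.42% (8.45 to 10.5) in bin 4 and 8.16% (7.26 to 9.14) in the deepest. In the multiome library the shares lay between 4.13% and 5.18%, and their intervals overlapped. All 5 were below the lowest scATAC share. The intervals for cells with and without a called barcode also overlapped. In the multiome library it held 4.74% (3.69 to 5.997) of the cells with 1 called barcode and 4.50% (4.01 to 5.03) of those called negative. In scATAC it held 7.14% (2.67 to 14.9) of the called and 8.12% (7.70 to 8.54) of the negative cells.

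**Figure D1:**
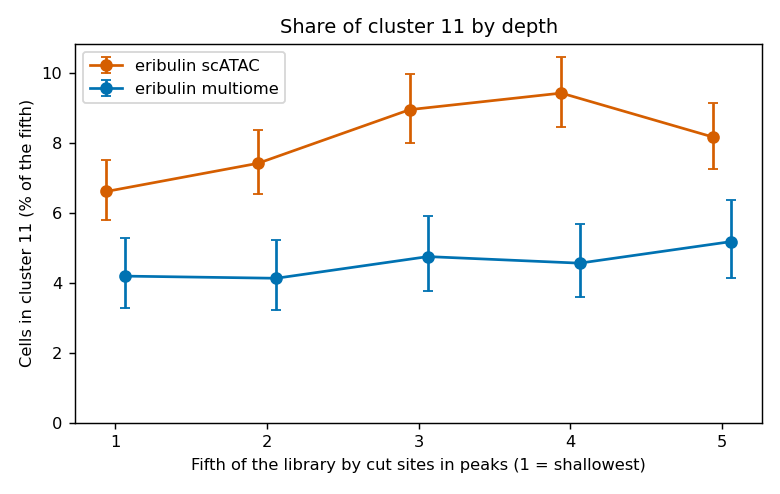
Share of cells in cluster 11 (%, y axis) in 5 bins of equal cell number by cut sites in peaks (x axis, 1 is the shallowest) of the eribulin scATAC and eribulin multiome libraries; bars are exact 95% binomial intervals. The scATAC shares lie between 6.61% and 9.42% and the multiome shares between 4.13% and 5.18%.

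On the deposited UMAP, a flat map of all cells in which near cells have similar open regions, cluster 11 had a compact core and a wide scatter of other cells. A cell was counted as core where at least 50% of its 30 nearest neighbours on the map also belonged to cluster 11. By this measure 53.8% (51.1 to 56.5; 730 of 1356) of the eribulin scATAC members were core, but 12.7% (9.48 to 16.5; 47 of 370) of the eribulin multiome members. Core cells were deep, with a median of 7887.5 cut sites against 4311 outside the core in scATAC, and 10709 against 4031 in the multiome library. The protocols also differed within the same range of cut sites. Of members with 4000 to 8000 cut sites, 67.7% (63.4 to 71.7) were core in scATAC and 7.69% (3.58 to 14.1) in the multiome library. Of members with at least 8000, 67.5% (63.3 to 71.5) and 39.4% (29.4 to 50.0) were core. Below 4000 cut sites 36 of 329 scATAC members and 1 of 159 multiome members were core.

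Outside its own cells, most neighbours of cluster 11 were in clusters 0, 13 and 7, by shares that were not adjusted for cluster size. Over all 1733 members, 44.9% of the 30 nearest neighbours were in cluster 11, 18.3% in cluster 0, 8.24% in cluster 13 and 7.62% in cluster 7. For eribulin multiome members, cluster 0 supplied 42.5% of the neighbours and cluster 11 itself 22.4%. For eribulin scATAC members, cluster 11 supplied 51.2% and cluster 0 supplied 11.7%. Neighbours came mostly from the cell's own library, at 54.8% for multiome and 79.0% for scATAC members, and the other eribulin library supplied 30.2% and 16.3%. Since map and clusters were derived from the same peak components, these positions describe the cluster and are no separate evidence for it.

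**Figure D2:**
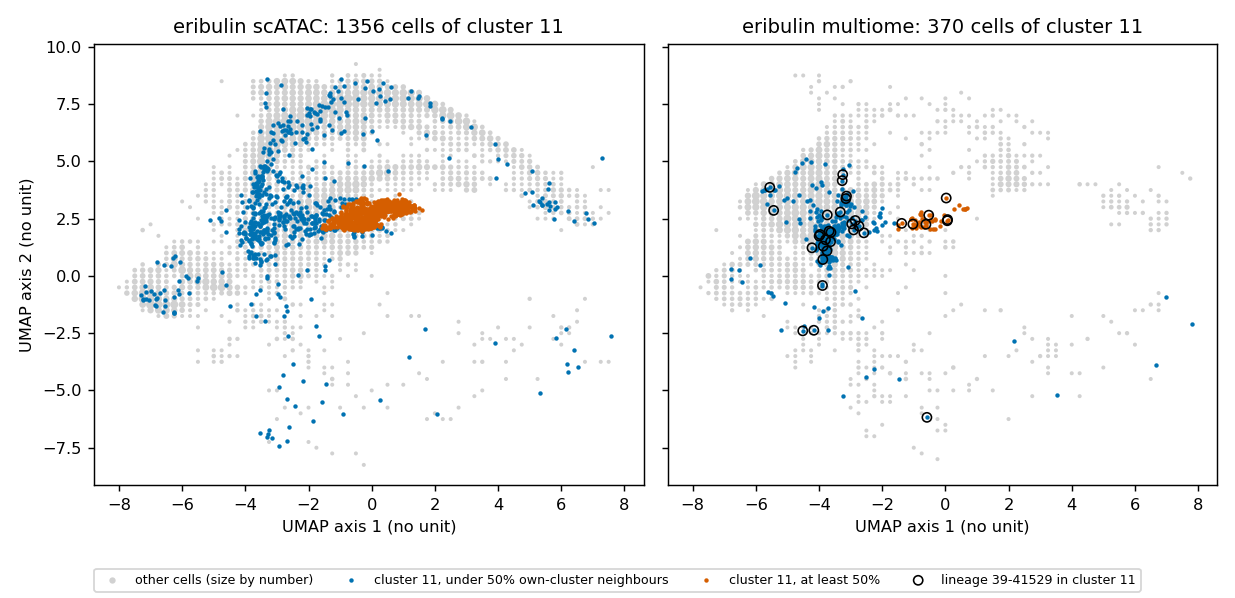
UMAP positions (axes without unit) of cluster 11 in the eribulin scATAC library (left, 1356 cells) and the eribulin multiome library (right, 370 cells). Orange points have at least 50% of their neighbours in cluster 11 (730 and 47 cells), blue points fewer, grey points are other cells of the library and black rings are members of lineage 39-41529.

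By their medians, members of cluster 11 were somewhat deeper than the other cells of their library, though some other eribulin clusters were deeper still. The median was 6574.5 cut sites in cluster 11 against 6018 in other cells of the eribulin scATAC library, and 4517 against 4212.5 in the eribulin multiome library. Detected peaks followed, with medians of 5896.5 against 5446 in scATAC and 4202.5 against 3924.5 in the multiome library. The quartiles of cut sites overlapped widely, from 4037.75 to 10009 in cluster 11 and from 3616 to 9845 in other cells of scATAC. In the multiome library the intervals of the medians overlapped, at 4139 to 4928 cut sites against 4117 to 4315. Among clusters with at least 50 cells, the median of cluster 11 ranked 4th of 9 in scATAC, where cluster 13 had 6920. It ranked 3rd of 6 in the multiome library, where cluster 12 had 5868.

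Relative to its cut sites, cluster 11 had a larger gene activity total than the other cells, in both protocols. The gene activity total, as Signac names it, sums the fragments over genes and their upstream regions in a cell. It was divided by the cell's cut sites in peaks, since the total itself follows depth. Its median was 0.956 (quartiles 0.921 and 1.00) in cluster 11 against 0.918 (0.889 and 0.961) in other cells of the eribulin scATAC library. In the eribulin multiome library it was 0.999 (0.962 and 1.04) in cluster 11 against 0.969 (0.937 and 1.01) in other cells. Of the members, 77.0% in scATAC and 70.0% in the multiome library lay above the median of the other cells. The value declined with depth in scATAC, and in the multiome library it was lowest in the deepest bin without a steady decline. Cluster 11 was higher in all 5 depth bins of both libraries. The difference was between 0.0244 and 0.0499 in the scATAC bins and between 0.0167 and 0.0397 in the multiome bins. In the multiome library the difference was 0.0296 between medians and 0.0193 between means.

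Some other eribulin clusters had higher values. Among eribulin clusters with at least 50 cells, its median ranked 4th of 9 in scATAC, below clusters 15 (1.06), 12 (0.973) and 10 (0.963). In the multiome library it ranked 2nd of 6, below cluster 15 (1.01) and next to cluster 10 (0.994). The neighbouring clusters on the map were lower, with 0.931 for cluster 13 and 0.916 for cluster 7 in scATAC and 0.968 for cluster 0 in the multiome library. In the untreated multiome library the highest median of its 9 such clusters was that of cluster 2, at 1.02.

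The nucleosome signal, the ratio of fragments spanning a nucleosome to shorter nucleosome-free ones, was higher in cluster 11 than in other cells in scATAC, but not in the multiome library. In scATAC its median was 0.794 (interval 0.787 to 0.801) in cluster 11 against 0.753 (0.751 to 0.755) in other eribulin cells, and it was higher in all 5 depth bins. In the multiome library it was 0.661 (0.648 to 0.676) against 0.669 (0.666 to 0.672), and higher in 1 of the 5 depth bins. The difference was thus 0.0413 in scATAC and -0.00762 in the multiome library, and the difference between these values was not tested. Cluster 5, with 0.811, and cluster 15, with 1.72, were the only clusters above cluster 11 in scATAC among those with at least 50 cells. Nearly all eribulin members lay under the median of the untreated library of their protocol (1.07 in scATAC and 0.907 in the multiome library). The shares were 98.2% in scATAC and 95.7% in the multiome library. This was not particular to the cluster, as the medians of the other eribulin cells, 0.753 and 0.669, were also under the untreated medians. In scATAC the median of cluster 11 was nearer to the untreated median than that of the other eribulin cells. The share of other eribulin cells under the untreated median was not computed.

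Enrichment of cuts at transcription start sites was slightly lower in cluster 11 in scATAC. Its median was 4.92 (4.86 to 4.95) in cluster 11 against 5.05 (5.04 to 5.07) in other eribulin scATAC cells. In the eribulin multiome library it was 4.996 (4.93 to 5.098) against 5.07 (5.05 to 5.08), so the intervals overlapped there. Cluster 11 was higher in 1 of 5 depth bins in scATAC and in 2 of 5 in the multiome library, where the difference of -0.0721 between medians was -0.0159 between means. Among scATAC clusters with at least 50 cells its median ranked 8th of 9, above cluster 0 at 4.85. Clusters 13, 1 and 7 came next above it, at 4.97, 4.98 and 4.99. Clusters 12, 10, 5 and 15 were higher, from 5.13 to 5.28. In the multiome library its median ranked 6th of 6.

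**Figure D3:**
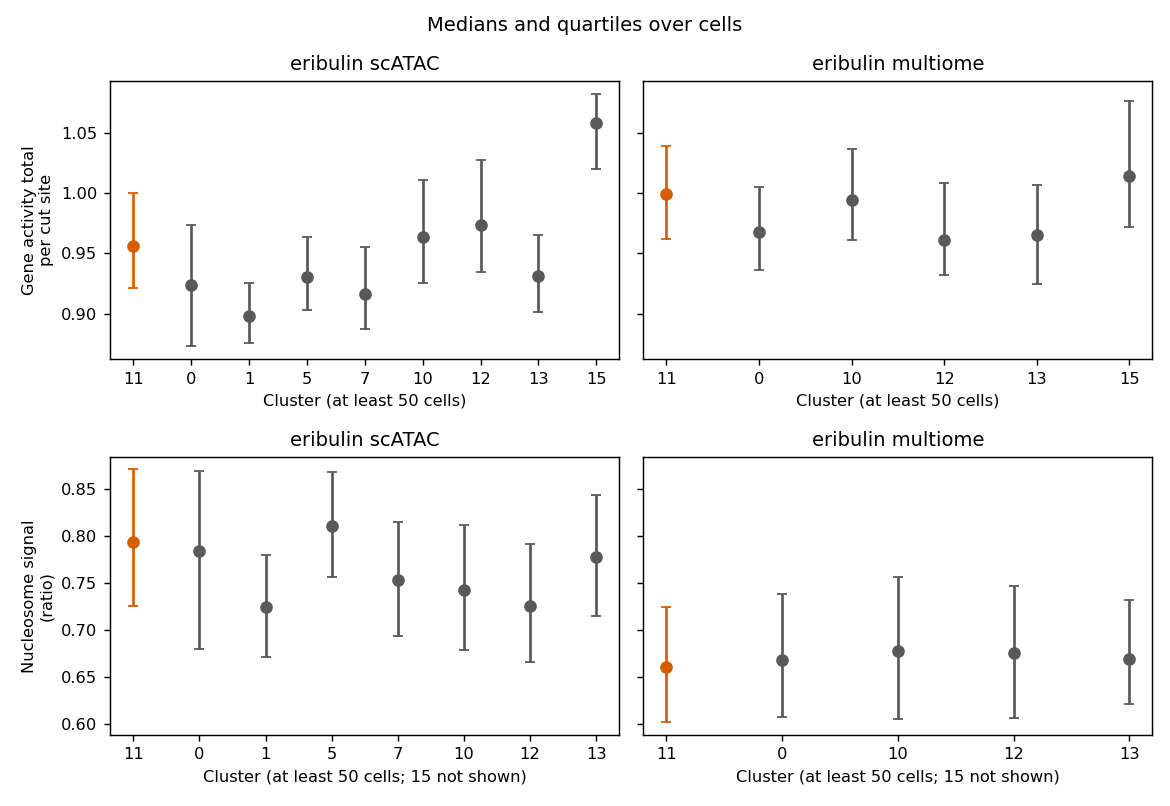
Gene activity total per cut site (top, y axis) and nucleosome signal (bottom, y axis, ratio) by cluster (x axis) in the eribulin scATAC (left) and eribulin multiome (right) libraries; points are medians over cells, bars run from the lower to the upper quartile, and cluster 11 is orange. Cluster 11 has 0.956 and 0.999 gene activity per cut site, and 0.794 and 0.661 in nucleosome signal; cluster 15 is left out of the lower panels.

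The 7 untreated cells in cluster 11 had nucleosome signals above the median of the eribulin members of their protocol. The 6 untreated scATAC cells had values of 1.07, 1.102, 1.05, 1.35, 1.03 and 0.913, in order of rising depth from 2508 to 27140 cut sites. Their median was 1.06, against 1.07 in the other untreated scATAC cells, and the eribulin scATAC members of the cluster had 0.794. The untreated multiome cell had 0.864, against 0.661 in the eribulin multiome members and a median of 0.907 in the other untreated multiome cells, and its barcode call was doublet. None of the 7 had a single called barcode. On the map, 6.67% of the neighbours of the 6 untreated scATAC cells belonged to cluster 11 and 15.6% to cluster 1.

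Lineage 39-41529 was the most frequent lineage among the called cells of cluster 11 in the eribulin multiome library. There, 66 of the 370 members had exactly 1 called barcode, or 17.8% (14.1 to 22.1), against 17.1% (16.3 to 18.0) of the other cells, and the lineage of the remaining members is unknown. Of these 66 members, 34 carried 39-41529, which is 51.5% (38.9 to 64.0), against 47 of 1325 called cells in other clusters, or 3.55% (2.62 to 4.69). The ratio of these shares was 14.5 (9.06 to 23.1). The lineage was picked as the most frequent in these same cells, which neither this interval nor later comparisons with its share allow for.

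The other 4 named lineages had smaller shares of the called members of cluster 11 than of other called cells in the eribulin multiome library. These shares depend on that of 39-41529, which took 51.5% in cluster 11 and 3.55% elsewhere and so lowered the rest. Lineage 76-49517 had 16.7% (8.62 to 27.9; 11 cells) of the called members against 32.2% (29.7 to 34.8) of other called cells. Lineage 6-93034 had 9.09% (3.41 to 18.7; 6 cells) against 30.0% (27.5 to 32.5). For both, the interval of the ratio lay below 1, from 0.256 to 0.935 for 76-49517 and from 0.111 to 0.666 for 6-93034. Lineage 95-33662 had 7.58% (2.51 to 16.8; 5 cells) against 12.9% (11.1 to 14.8), and lineage 55-23349 had 4.55% (0.947 to 12.7; 3 cells) against 10.8% (9.17 to 12.6). Their ratio intervals included 1. Ratios without 39-41529 were not computed, so a ratio below 1 does not show by itself that a lineage was scarce in the cluster. All lineages but 39-41529 together had 2.44% of their cells in cluster 11. Of the 4 lineages, 76-49517 had 2.51% and 95-33662 had 2.84%, while 6-93034 had 1.49% and 55-23349 had 2.05%. The remaining 7 called members belonged to 5 lineages with 1 or 2 cells each.

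Seen from the lineages, 39-41529 had 42.0% (31.1 to 53.5; 34 of 81) of its eribulin multiome cells in cluster 11, and all other lineages together 2.44% (1.68 to 3.43; 32 of 1310). A further 34 cells of 39-41529 lay in cluster 0 and 7 in cluster 12. The share in cluster 11 was 2.51% for 76-49517, 1.49% for 6-93034, 2.84% for 95-33662 and 2.05% for 55-23349. For 39-41529 and for all other lineages together, the shares were similar for both written forms of the barcode names. Among cells named with hyphens, 28 of 66 cells of 39-41529 (42.4%) and 25 of 953 cells of other lineages (2.62%) were members. Among cells named with a sequence, 6 of 15 cells of 39-41529 and 7 of 357 cells of other lineages (1.96%) were members. The members of 76-49517, 6-93034 and 95-33662 were all named with hyphens. With a sequence, 0 of 64 cells of 76-49517, 0 of 51 of 6-93034 and 0 of 43 of 95-33662 were members. This allows up to 4.69%, 5.88% and 6.98%, above the shares found with all names. Each count on its own is too small to show if the written forms differ for these lineages, and the counts were not pooled.

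**Figure D4:**
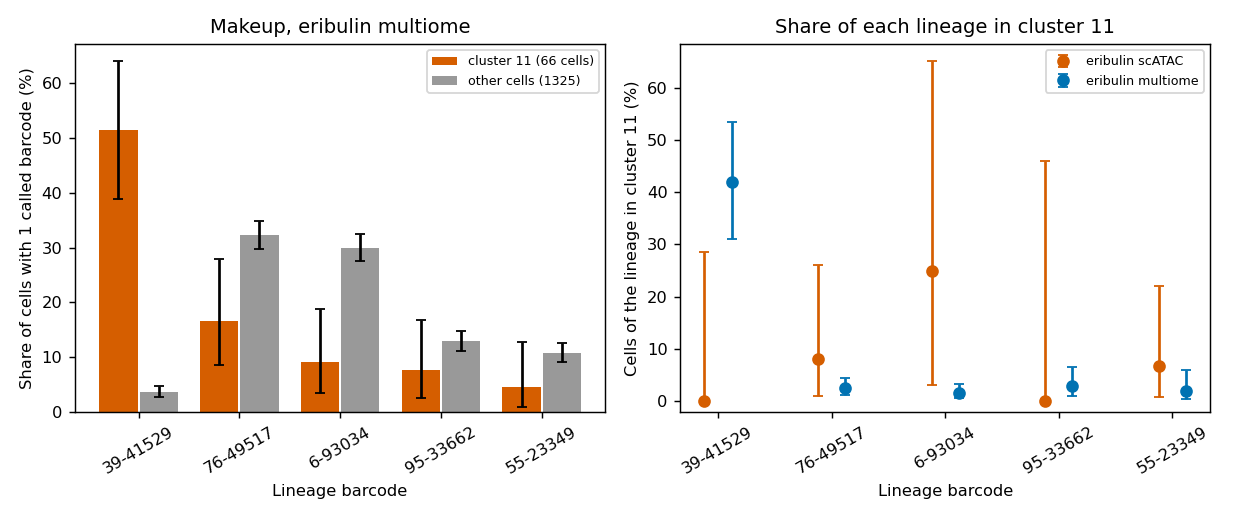
Left, share of cells with 1 called barcode (%, y axis) for the 5 named lineages in cluster 11 and in other cells of the eribulin multiome library. Right, share of each lineage's cells that lie in cluster 11 (%, y axis) in the eribulin scATAC and eribulin multiome libraries; bars are exact 95% intervals. Lineage 39-41529 stands at 42.0% in the multiome library and at 0 of 11 cells in scATAC.

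In the eribulin scATAC library no cell of lineage 39-41529 lay in cluster 11. Only 84 cells had a single called barcode there, and 6 of them were members of the cluster, namely 2 each of 76-49517, 6-93034 and 55-23349. Lineage 39-41529 had 11 called cells, of which 6 lay in cluster 1, 4 in cluster 7 and 1 in cluster 10. A count of 0 of 11 allows a share of up to 27.3%, and its exact upper bound is 28.5%. Both limits are under the lower bound of 31.1% in the multiome library. They are above 8.11%, the share of cluster 11 in all cells of the scATAC library. Lineage 6-93034 had 2 of 8 scATAC cells in the cluster (interval 3.19% to 65.1%), against 1.49% (0.548 to 3.21) in the multiome library. Lineage 95-33662 had 0 of 6, which allows up to 50.0%. The difference between the protocols was not tested.

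Clusters 10 and 12 were also led by 1 lineage each in the eribulin multiome library. Cluster 10 was led by 95-33662, with 69.9% (58.8 to 79.5) of its 83 called multiome cells, and cluster 12 by 6-93034, with 83.7% (78.4 to 88.1) of its 239. Cluster 10 held 0 of 6 scATAC cells of 95-33662, which allows up to 50.0%, and 33.0% of its multiome cells. Cluster 12 held 1 of 8 scATAC cells of 6-93034 (0.316% to 52.7%), and 49.6% of its multiome cells. Cluster 11 was the more mixed of the 3. Its effective number of lineages, the inverse of the chance that 2 called cells share a barcode, was 3.32, against 2.00 in cluster 10 and 1.42 in cluster 12. All other called cells of the multiome library together gave 4.46. In number of lineages the cluster was near the rest, with 10 in 66 cells against 9.61 on average in as many other called cells. In scATAC the 6 called members came from 3 lineages.

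Within lineage 39-41529, the intervals of members and non-members of cluster 11 overlapped for each cell measure. The differences were not tested. The median was 5921.5 (3543 to 8901) cut sites in the 34 members against 8113 (3589 to 10119) in the 47 other cells. The nucleosome signal was 0.623 (0.606 to 0.667) in members against 0.650 (0.618 to 0.703) in the others. Gene activity per cut site was 0.962 (0.944 to 0.992) in members against 0.984 (0.967 to 1.02) in the others. The median of the members thus lay under the interval of the others, though the intervals overlapped. In the other lineages it was 0.994 (0.970 to 1.02) in the 32 members against 0.962 (0.959 to 0.966) in 1278 other cells. On the map, 7 of the 34 members of 39-41529 and 5 of the 32 members of other lineages were core cells.

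In the untreated multiome library, lineage 39-41529 lay mainly in cluster 2. Of its 40 called cells in the untreated multiome library, 34 (85.0%, 70.2 to 94.3) were in cluster 2, 2 in cluster 3 and none in cluster 11, which allows a share of up to 7.50%. Cluster 2 held 3311 of all 9583 untreated multiome cells but 126 of the 9361 untreated scATAC cells. Cluster 4 held 92 and 2921. In the untreated scATAC library the lineage had only 2 called cells, 1 in cluster 4 and 1 in cluster 9. Lineages 55-99383 and 55-37135, with 2 and 1 members of cluster 11 after eribulin, are named here after their values were seen. In the untreated multiome library they were also mostly in cluster 2, with 83.3% of 36 cells and 75.4% of 57. The other named lineages lay elsewhere, 95-33662 with 4 of 6 untreated cells in cluster 3 and 55-23349 with 8 of 19 there, 6-93034 with 5 of 12 in cluster 6 and 76-49517 with both of its cells in cluster 3.

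Eribulin multiome cells were then grouped by the untreated cluster that held over 50% of their lineage, for lineages with at least 10 untreated multiome cells. Lineage 39-41529 aside, 8 lineages based in cluster 2 had 3 of 35 cells in cluster 11, or 8.57% (1.80 to 23.1). This was below the 42.0% of 39-41529, and the intervals did not overlap. The 7 lineages based in other untreated clusters had 0 of 9 cells in cluster 11, which allows up to 33.3%. The 11 lineages with fewer untreated cells or no such cluster had 29 of 1266, or 2.29% (1.54 to 3.27). This interval overlapped that of the 8 lineages based in cluster 2, and the difference was not tested.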

How the data were processed

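Peak matrices were made with cellranger-atac 1.2.0 (scATAC) and cellranger-arc 1.0.0 (multiome) on mm10 and analysed with Signac 1.1.1, per the series' design text. The same text gives limits of 1000 and 75000 fragments in peaks for a cell (1 deposited multiome cell has 82683 cut sites), and clusters at resolution 0.8 on components 2 to 30. The step that joined the libraries and the calling of barcodes are not given in the sources used here. The deposited counts are whole numbers per cell of cut sites in peaks, peaks and gene activity, not normalized. The deposited nucleosome signal and enrichment at start sites are each a ratio per cell, per the file headers. Columns of percentiles, deposited as a fraction, were left out. UMAP positions as deposited are a score on axes that have no unit.

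Cells were assigned to groups by the library name in the cell table and the sample titles. Shares, medians, neighbour shares and lineage shares were computed with Python 3.11.15, pandas 2.3.3, numpy 2.4.6 and scipy 1.17.1, and drawn with matplotlib 3.10.9. Barcode names in 3 written forms were brought to 1 form by their numbers. Cells called doublet, multiplet, unmapped or negative were left out of lineage shares only. Lineages are named with at least 3 called members in an eribulin library, and clusters as the 3 that supply most neighbours on the map or as holding at least 10% of a named lineage. Clusters 2, 5 and 15 and the single lineages beyond that rule were named after their values were seen. The interval calculations were tested on simulated data. The members and lists were chosen with earlier results of these data known. Gene activity per cut site, the core of the map and the depth bins were chosen after seeing the data.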

Additional observations from a re-analysis of the deposited data

Results flagged for a closer look

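For 4 contrasts the eribulin scATAC and eribulin multiome libraries moved in opposite directions. With 1 library per protocol none of these differences was tested, and protocol and run cannot be told apart.

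The nucleosome signal of cluster 11 minus that of other cells was 0.0413 in eribulin scATAC and -0.00762 in eribulin multiome cells. The interval of the multiome median in cluster 11, 0.648 to 0.676, contains the 0.669 of the other cells.

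The share of lineage 39-41529 in cluster 11 minus that of the other lineages was -8.22 percentage points in scATAC, where it rests on 0 of 11 cells, and 39.5 points in the multiome library, with 34 of 81 cells. For lineage 6-93034 the same difference was 19.7 points in scATAC, on 2 of 8 cells, and -4.58 points in the multiome library. For lineage 76-49517 it was 1.22 points in scATAC, on 2 of 25 cells, and -3.26 points in the multiome library. In the differences for 6-93034 and 76-49517 the other lineages include 39-41529, which raises their multiome share. All lineages but 39-41529 together had 2.44% there, against 1.49% for 6-93034 and 2.51% for 76-49517. The negative multiome value for 76-49517 thus depends on 39-41529 being in the reference.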

How the results depend on the processing

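The 40 results were computed again under 116 alternatives in all. None of the differences between eribulin and untreated shares, or in cell measures between cluster 11 and other cells, changed direction. The other results are shares or numbers of lineages, which cannot change direction, so only a move out of a set range was checked for them. Of the 68 alternatives for the main results, 3 moved the value beyond its counting interval. Without cells called doublet, multiplet or unmapped, the untreated multiome share of cluster 11 became 0 (0 of 8662 cells, which allows up to 0.0346%), since its only cell there was called doublet. Between means in place of medians, the difference in gene activity per cut site was 0.0324 in scATAC and 0.0193 in the multiome library. The share of 39-41529 among called multiome members was between 46.2% and 58.3% under the 5 alternatives for names, depth and place on the map. The other 8 values that moved were multiome shares of single lineages that became 0, for 76-49517, 6-93034 and 95-33662 among names with a sequence, and for 6-93034 and 55-23349 among core cells. No library could be left out, since each group has 1. No paired analysis was possible because no result comes from a test and the groups share no replicate numbers beyond 1 library each; the eribulin minus untreated differences were taken within each protocol, and these 2 pairs allow no exact two-sided permutation p below 0.5. Precision in scATAC lineages is limited by 84 called cells.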
